A study of Mus musculus with 9 samples.

Results

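10 genes that store, import, export, release or sense iron were followed in cultured mouse primary macrophages at 3 oxygen exposures. They are the ferritin heavy chain Fth1 and light chain Ftl1, the iron exporter ferroportin (Slc40a1), the transferrin receptor Tfrc, the divalent metal transporters Slc11a1 and Slc11a2, haem oxygenase Hmox1, the ferritin cargo receptor Ncoa4, and the genes of the iron regulatory proteins, Aco1 and Ireb2. The genes were picked by symbol for their part in iron handling, with earlier results of these data known, and each symbol matched 1 Ensembl identifier, which makes 10 of the 34866 genes listed. Expression had been measured by mRNA sequencing (paired ends of 75 bases), and the study concerned how macrophages adapt when oxygen is limited and how this bears on efferocytosis, the uptake of dying cells. The standard group stayed 7 days in standard oxygen, the acute group was cultured in standard oxygen and then spent 3 hours at 1% oxygen, and the chronic group spent 7 days at 1% oxygen. Each group had 3 samples, which the series describes as biological replicates. All groups grew in vitro in the same alpha-MEM medium with serum and an L929-conditioned supplement (L929 is a mouse fibroblast line). Mouse strain, age and the number of animals are not given in the sources used here.

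Iron that a cell does not use at once is held inside ferritin, a shell of heavy chains, which oxidise iron, and light chains, which help to build the mineral core. Macrophages take up iron bound to transferrin, but much of their iron comes from the haem of red cells they engulf, which haem oxygenase opens, and they return iron to the blood through ferroportin. When iron is scarce, iron regulatory proteins bind a short RNA hairpin, the iron-responsive element. Bound ahead of the coding sequence, as in ferritin and ferroportin mRNA, they hold back translation. Bound behind it, as in transferrin receptor mRNA, they protect the message from decay. Protein amounts were not measured here, so translation of these messages is outside what the values show.

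Values are TPM, which corrects for gene length and gives each gene's part of all transcripts in a library. The gene lengths used and the handling of shared reads are not given, so levels compare only roughly between genes. TPM holds no read depth, and each library had from 10724 to 11208 genes at 1 TPM or more. The samples also carry digits in their descriptions that are shared between groups. These are called here code X, Y and Z, and what they stand for is not stated. Where libraries are compared within a code below, it is assumed that those of codes X and Y form pairs. The 3 code Z libraries stood apart from the rest, and in every group they had the lowest Fth1, Ftl1 and Tfrc. Values below are given in the order X, Y, Z. Of 10 macrophage markers, 9 were at 28.4 TPM or more in every library, and the sum of 57477 to 75814 TPM was mostly Lyz2. The tenth, Mrc1, was below 1 TPM in the 3 code Z libraries and at 2.08 to 2.78 TPM in the other standard and acute libraries, and reached 27.2 and 39.0 TPM in chronic codes X and Y. Csf1r (579 to 778 TPM) and Itgam (729 to 807 TPM) were higher in every chronic library than in any other. Cd14 (692 to 794 TPM) was lower in every chronic library than in any other. Of the 10 markers, 5 had a higher mean in the chronic than in the standard group. The part of these shifts in the results for the iron genes was not tested. The 6 fibroblast markers were below 1 TPM in all 9 libraries, as were 7 of 9 erythroid, 5 of 6 lymphocyte, all 5 dendritic cell and all 4 mast cell and basophil markers. A list of 8 neutrophil and precursor markers summed to 898 to 1595 TPM in the standard libraries, 941 to 1910 in the acute and 260 to 585 in the chronic ones. Nearly all of that sum was S100a8, which macrophages can express too, and 4 of the 8 were below 1 TPM throughout. The part of this lower chronic sum was not tested either. In bulk RNA, fewer cells of a type and less RNA per cell cannot be told apart.

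The iron-responsive elements found in these genes are shown because iron regulatory proteins bind elements of this kind. The transcripts of GENCODE M21 (mouse build GRCm38) were searched for C, any 5 bases, CAGTGN with a last base other than G, and 5 bases that pair with the preceding 5 (GT pairs allowed). The transcribed strand alone was searched. Each line gives 30 bases, 5′ to 3′ along the transcript, with the unpaired C and the 6-base loop in capitals.
Fth1: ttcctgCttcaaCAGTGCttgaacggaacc
Ftl1: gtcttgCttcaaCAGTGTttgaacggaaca
Slc40a1: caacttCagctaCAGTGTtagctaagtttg
Tfrc element 1: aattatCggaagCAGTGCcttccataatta
Tfrc element 2: cattatCgggagCAGTGTcttccataatgc
Tfrc element 3: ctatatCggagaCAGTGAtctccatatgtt
Tfrc element 4: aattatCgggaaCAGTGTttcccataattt

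The Fth1 element lies in the 5′ UTR at chr19:9982732-9982761 on the plus strand, 132 bases before the start codon. The Ftl1 element lies in the 5′ UTR at chr7:45459778-45459807 on the minus strand, 170 bases before the start codon. The printed windows of the ferritin chains are identical at 26 of 30 positions, and each is identical to that of Slc40a1 at 13 of 30. The Slc40a1 element is in the 5′ UTR at chr1:45925464-45925493 on the minus strand, 224 bases before the start codon. The 4 Tfrc elements are in the 3′ UTR on the plus strand, at chr16:32631219-32631248, chr16:32631598-32631627, chr16:32631663-32631692 and chr16:32631710-32631739. No match was found in the UTRs of any coding transcript of the other 6 genes. This says only that this strict pattern is not there. An element whose stem pairs in another way would be missed, so these 6 genes are not shown to lack one. For the count over all genes only the longest coding transcript of each was searched. There, 16 of 20151 (0.0794%) had a match in the 5′ UTR and 92 of 20810 (0.442%) in the 3′ UTR. A match describes a sequence and does not show binding in these cells.

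After 7 days of 1% oxygen the messages for both ferritin chains, the transferrin receptor and Slc11a1 were lower in every library than in standard oxygen. Ncoa4 was too, by a small margin. The messages of the iron regulatory proteins were not. After 3 hours Hmox1 stood above and Tfrc below every standard library. 9 of the 10 genes were tested with limma on log2(TPM + 1), each comparison on its 6 samples, with p-values adjusted over all genes tested. Slc40a1 fell under the minimum mean of 1 TPM. In chronic hypoxia against standard oxygen 1 of the 9 passed an adjusted p of 0.05, Tfrc, which was lower. Among all genes 2.69% passed in either direction, and 0.596% passed as lower (1.06% after rescaling of the libraries to a common median ratio, with 1.04% higher against 2.1% before). With the sample code as a block, that is with each library compared within its own code, 6 of the 9 passed, all lower, where 18.4% of all genes passed and 3.3% passed as lower (5.91% after rescaling). With the replicate number of the sample titles as the block instead, 0 of the 9 passed (Tfrc at a limma adjusted p of 0.121), where 0.00904% of all genes did. In chronic against acute hypoxia 1 of the 9 passed, Hmox1, which was lower, against 0.695% of all genes and 0.144% as lower (0.453% after rescaling). With the code block 5 of the 9 passed, all lower, against 15.5% of all genes and 3.42% as lower (5.03% after rescaling). In acute hypoxia against standard oxygen none of the 9 passed limma's adjusted test, with or without the code block, where 0.0273% and 0.71% of all genes passed. At an unadjusted p under 0.05 there were 3 of 9 in that comparison, where 7.14% of all genes reached it. Without the 3 code Z libraries 3 of 9 passed the adjusted test, against 2.95% of all genes. Fits without code Z have fewer libraries in each group, and more of all genes passed in them. The shares were 21.1% in chronic against standard and 16.3% in chronic against acute. Both hypoxia groups were compared with the same 3 standard libraries.

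Group ranges did not overlap for 5 genes in chronic hypoxia against standard oxygen, all lower (Fth1, Ftl1, Tfrc, Slc11a1 and Ncoa4), where 29.6% of all genes did not overlap and 5.39% did so as lower. In chronic against acute hypoxia they were 5, all lower (Fth1, Ftl1, Tfrc, Slc11a1 and Hmox1), where the background was 27.8% and 5.5% as lower. In acute hypoxia against standard oxygen they were Hmox1, higher, and Tfrc, lower, against 7.63% of all genes higher and 4.85% lower (12.5% either way). The median log2 fold change of the 9 genes was -0.14, -0.49 and -0.53 in acute against standard, chronic against standard and chronic against acute. That of all genes was 0.01, 0.16 and 0.14. Rescaling to a common median ratio removes such a shift by construction.

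**Figure D1:**
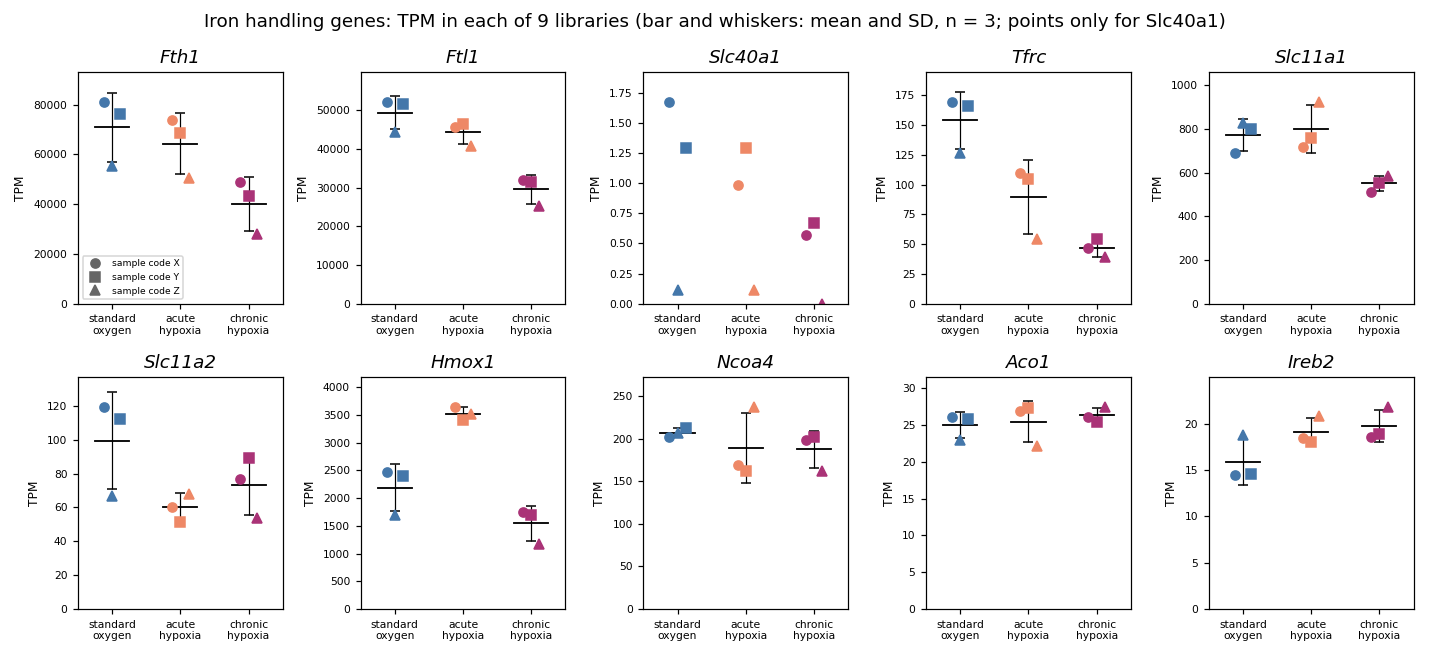
TPM of each iron handling gene (vertical axis, starting at 0) in the 9 libraries by oxygen group, with the symbol giving the sample code and the bar and whiskers the mean and SD of 3 libraries (Slc40a1 has points only). Fth1, Ftl1, Tfrc, Slc11a1 and, by a small margin, Ncoa4 are lower in every chronic library than in any standard library. The acute Hmox1 values of 3401 to 3637 TPM lie above the other 6.

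Fth1 and Ftl1 were among the most abundant messages of these macrophages. By group mean Fth1 ranked 1, 1 and 2 among all genes in standard oxygen, acute and chronic hypoxia, and Ftl1 ranked 3, 3 and 4. Fth1 (chr19:9980598-9985098, plus strand) stood at 81020, 76446 and 55216 TPM in standard oxygen, 73711, 68787 and 50367 in acute hypoxia, and 49127, 43417 and 27938 in chronic hypoxia. The 3 chronic values lay below all others, and the acute and standard ranges overlapped. The group means were 70894 ± 13769, 64288 ± 12305 and 40161 ± 10963 TPM (SD, n = 3). Chronic Fth1 was 0.567 times its standard level, a log2 fold change of -0.84 (SE 0.29), with a limma adjusted p of 0.158. With the code block the same difference had an SE of 0.13 and passed at a limma adjusted p of 0.0226, and it was lower in 3 of 3 code pairs. Against acute hypoxia chronic Fth1 differed by -0.70 on the log2 scale (adjusted p = 0.242 with limma and 0.0327 with the code block). The acute difference from standard oxygen was -0.14 (95% interval -0.68 to 0.40, limma adjusted p = 0.9997).

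Ftl1 (chr7:45457944-45459884, minus strand) followed the heavy chain. Its values were 52128, 51533 and 44533 TPM in standard oxygen, 45570, 46484 and 40821 in acute hypoxia, and 31887, 31528 and 25226 in chronic hypoxia. Every chronic value was below every other, and the acute and standard ranges overlapped. Group means were 49398 ± 4224, 44292 ± 3040 and 29547 ± 3747 TPM (SD, n = 3). Chronic Ftl1 was 0.598 times its standard level (log2 fold change -0.75, SE 0.19), with a limma adjusted p of 0.0939 without and 0.0226 with the code block. Chronic against acute, the difference was -0.59 (limma adjusted p = 0.167 without and 0.0389 with the block), and acute against standard it was -0.16 (limma adjusted p = 0.978).

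Reads of Ftl1 can be shared with copies of the gene elsewhere in the genome. Of the 75-base stretches of its longest coding transcript, 66.0% (590 of 894) also occur in another listed gene, against 2.32% for Fth1. The copies were listed at far lower levels. Ftl1-ps1, annotated as protein coding on chromosome 13, averaged 28.4 TPM over the 9 libraries, Gm15590 12.8 TPM, Ftl1-ps2 1.46 TPM and Ftl2-ps 0.935 TPM. On the heavy chain side, the 1 gene with shared stretches, Gm6977, averaged 2.26 TPM, and the annotated pseudogenes Fth-ps2 and Fth-ps3 averaged 0.46 and 0.211 TPM. The Ftl1 level is therefore uncertain in how reads were divided between these copies or dropped, which TPM does not show.

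Together the 2 chains made up 13.3, 12.8 and 9.97% of all TPM in the standard libraries, 11.9, 11.5 and 9.12% in the acute libraries, and 8.10, 7.49 and 5.32% in the chronic libraries. All 3 chronic libraries were below the 6 others. The share averaged 12.03% ± 1.80 in standard oxygen and 6.97% ± 1.47 in chronic hypoxia (SD, n = 3), a difference of -5.06 percentage points with an exact two-sided permutation p of 0.1, the smallest that 3 against 3 samples allow. The difference between chronic and acute hypoxia was -3.89 points (exact permutation p = 0.1), and between acute hypoxia and standard oxygen -1.17 points (exact permutation p = 0.5). The last value ranged from -2.2 without standard replicate 2 to -0.302 without acute replicate 3. Because TPM sums to the same total in each library, a smaller ferritin share raises the values of other genes by construction. Relative to the median of all genes the differences of the ferritin chains are larger (log2 -1.002 for Fth1 and -0.91 for Ftl1, chronic against standard).

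The balance of the 2 messages is read from their ratio within a library, as a comparison between groups. The level of this ratio depends on the gene lengths used for TPM, which are not given, and on how shared Ftl1 reads were counted. Fth1 has 3469 exonic bases in all and 1494 in its longest coding transcript, and Ftl1 has 1340 and 968. Fth1 per Ftl1 was 1.55, 1.48 and 1.24 in standard oxygen, 1.62, 1.48 and 1.23 in acute hypoxia, and 1.54, 1.38 and 1.11 in chronic hypoxia. Code Z had the lowest ratio in each group, and the groups overlapped. The log2 ratio in chronic hypoxia differed from that in standard oxygen by -0.09 (exact permutation p = 0.6), and the acute difference was 0.02 (exact permutation p = 1).

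**Figure D2:**
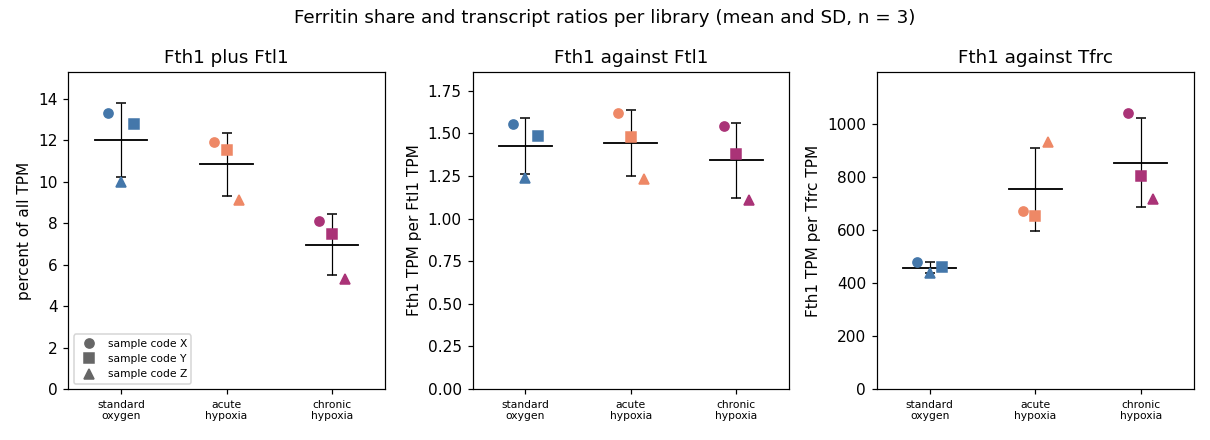
Percent of all TPM held by Fth1 and Ftl1 together, Fth1 TPM per Ftl1 TPM, and Fth1 TPM per Tfrc TPM in each library, by oxygen group, with symbols for the sample code and bars for mean and SD of 3 libraries. The ferritin share lies between 5.32 and 8.10% in chronic hypoxia and between 9.97 and 13.3% in standard oxygen, and Fth1 per Tfrc is above the standard range in all 6 hypoxic libraries.

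Tfrc (chr16:32608920-32632794, plus strand), the receptor that brings in iron-loaded transferrin, had the largest change of the 9 tested genes in chronic hypoxia against standard oxygen. Its levels were 169, 166 and 127 TPM in standard oxygen, 110, 105 and 54.1 in acute hypoxia, and 47.2, 54.0 and 39.0 in chronic hypoxia. The values of both hypoxia groups lay below every standard value, and the chronic values, up to 54.0 TPM, lay just under the lowest acute value. Group means were 154 ± 23.8, 89.6 ± 30.8 and 46.8 ± 7.50 TPM (SD, n = 3). Chronic Tfrc fell to 0.304 times its standard level, a log2 fold change of -1.70 (SE 0.17, limma adjusted p = 0.0101). The call ended when standard replicate 1, standard replicate 3, chronic replicate 1 or chronic replicate 2 was left out (limma adjusted p of 0.0695, 0.0818, 0.0701 and 0.0654), with fold changes between -1.83 and -1.58 over all 6 omissions. Without code Z it was -1.71 (limma adjusted p = 0.00146).

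3 hours at 1% oxygen gave Tfrc a log2 difference of -0.83 (SE 0.29) from standard oxygen, lower in 3 of 3 code pairs, with a limma adjusted p of 0.572, or 0.0944 with the code block. In the smaller fit without the 3 code Z libraries the difference was -0.64 and passed (limma adjusted p = 0.0172), where 2.95% of all genes did. Chronic against acute, Tfrc differed by -0.87 (limma adjusted p = 0.169 without and 0.0243 with the code block). Tfrc is also known as a gene of dividing cells. 10 proliferation genes summed to 482 to 515 TPM in the standard libraries, 485 to 551 in the acute and 531 to 711 in the chronic ones. The chronic sums were above all standard ones and overlapped the acute ones. More of the sum was Pcna than any other gene, with means of 309, 298 and 269 TPM in the standard, acute and chronic groups, while the other 9 genes had a higher mean in the chronic than in the standard group. Mki67 was 4.68 to 10.4 TPM in the standard and 14.3 to 28.9 TPM in the chronic libraries. The part of these genes in the Tfrc result was not tested.

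Fth1 and Tfrc were both lower in chronic hypoxia. Their ratio within a library does not depend on scaling, though its level depends on the gene lengths used for TPM, which are not given. There were 478, 460 and 436 TPM of Fth1 per TPM of Tfrc in standard oxygen, 673, 654 and 931 in acute hypoxia, and 1040, 804 and 716 in chronic hypoxia. All hypoxic libraries were above the standard ones, and the hypoxia groups overlapped. The log2 ratio of Tfrc to Fth1 was lower than in standard oxygen by -0.70 in acute and -0.88 in chronic hypoxia, each with the smallest exact permutation p that 3 against 3 samples allow (0.1). Chronic and acute hypoxia differed by -0.18 (exact permutation p = 0.5), and by -0.46 without code Z.

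Slc11a1 and Slc11a2 move divalent metals across membranes. Slc11a1 (chr1:74375195-74386062, plus strand) sits in the phagosome of macrophages and is known for resistance to intracellular bacteria. It measured 690, 798 and 828 TPM in standard oxygen, 717, 757 and 922 in acute hypoxia, and 513, 554 and 584 in chronic hypoxia. The chronic range lay below both others, which overlapped each other, and here code Z was the highest of each group. Group means were 772 ± 72.7, 799 ± 109 and 551 ± 35.6 TPM (SD, n = 3). The chronic level was 0.713 times the standard level (log2 fold change -0.48, SE 0.11, limma adjusted p = 0.0806, and 0.0168 with the code block). Against acute hypoxia the log2 difference was -0.53 (limma adjusted p = 0.105, and 0.0172 with the block). After rescaling, both differences passed without a block (limma adjusted p of 0.0309 and 0.0475). Acute against standard, the difference was 0.04 (95% interval -0.27 to 0.36).

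Slc11a2 (chr15:100387898-100425072, minus strand) carries iron out of endosomes after transferrin uptake. It measured 119, 112 and 66.8 TPM in standard oxygen, 60.6, 51.3 and 68.2 in acute hypoxia, and 77.1, 88.9 and 54.0 in chronic hypoxia. The code Z standard library was as low as the hypoxic ones, so all groups overlapped. The acute difference was -0.68 (SE 0.24, limma adjusted p = 0.572, and 0.316 with the code block), with pairs at -0.96, -1.12 and 0.03. In the smaller fit without code Z it was -1.04 and passed (limma adjusted p = 0.0172), where 2.95% of all genes did. Chronic hypoxia differed from standard oxygen by -0.42 (limma adjusted p = 0.408), lower in 3 of 3 pairs, and passed with the code block (limma adjusted p = 0.0388). It was -0.68 without standard replicate 2 and -0.22 without chronic replicate 3. Chronic against acute hypoxia, the difference was 0.26 (limma adjusted p = 0.506), from 0.11 without chronic replicate 2 to 0.47 without chronic replicate 3. In the smaller fit without code Z it was 0.56 and passed (limma adjusted p = 0.0383), where 16.3% of all genes did. Some reads could belong to Gm5475 on the opposite strand, which overlaps 402 exonic bases (6.33%) of Slc11a2, since the sources used here do not say whether counting used strand.

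Slc40a1 (chr1:45908068-45926523, minus strand), the iron exporter, was close to the limit of these tables. It was listed at 1.67, 1.29 and 0.11 TPM in standard oxygen, 0.99, 1.29 and 0.11 in acute hypoxia, and 0.57, 0.67 and 0 in chronic hypoxia. The code Z library was lowest in each group. Low listed values need care in these tables: S100a9 was listed at 0 in 8 of 9 libraries, while its partner S100a8 stood at 258 to 1906 TPM in all. The chronic value was the lowest of its code in 3 of 3 codes, and no test was made.

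Hmox1 (chr8:75093621-75100589, plus strand), which opens haem and frees its iron, was above its standard level after 3 hours and, within each code, below it after 7 days. It measured 2479, 2391 and 1701 TPM in standard oxygen, 3637, 3401 and 3513 in acute hypoxia, and 1751, 1705 and 1180 in chronic hypoxia. The acute range lay above both others, and the chronic and standard ranges overlapped through the code Z standard library. Group means were 2190 ± 426, 3517 ± 118 and 1545 ± 317 TPM (SD, n = 3). Hmox1 fell from acute to chronic hypoxia to 0.439 times the acute level (log2 fold change -1.21, SE 0.18, limma adjusted p = 0.0493). This call is near the threshold and ended with rescaling (limma adjusted p = 0.0521) and without acute replicate 1, 2 or 3 or chronic replicate 1 or 2 (limma adjusted p from 0.0645 to 0.238), while with the code block it was 0.0125. Acute Hmox1 was 1.61 times the standard level, a log2 difference of 0.70 (SE 0.16), higher in 3 of 3 pairs, with a limma adjusted p of 0.273, or 0.103 with the code block. It passed in the smaller fit without code Z (0.53, limma adjusted p = 0.0337), where 2.95% of all genes did. Chronic Hmox1 differed from standard oxygen by -0.51 (limma adjusted p = 0.232) and passed with the code block (limma adjusted p = 0.0172), with pairs at -0.50, -0.49 and -0.53.

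Ncoa4 (chr14:32159865-32179855, plus strand) hands ferritin to the lysosome, where its iron is released. It measured 202, 213 and 207 TPM in standard oxygen, 169, 162 and 237 in acute hypoxia, and 198, 202 and 162 in chronic hypoxia. All chronic values were below all standard values, by a small margin, and the acute values spanned both groups. The log2 differences were -0.15 in acute (95% interval -0.52 to 0.22) and -0.15 in chronic hypoxia (95% interval -0.42 to 0.12) against standard oxygen, and neither passed with limma, with or without the code block. Ncoa4 shares 41.4% of its 75-base stretches with Gm6768, which was listed at 0.032 TPM on average.

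Aco1 and Ireb2 encode the proteins that read iron in the cytosol. Aco1 (chr4:40143081-40198338, plus strand) makes an aconitase that turns into an iron regulatory protein when it loses its iron-sulfur cluster. Its levels were 26.2, 25.8 and 23.0 TPM in standard oxygen, 26.8, 27.4 and 22.2 in acute hypoxia, and 26.2, 25.5 and 27.4 in chronic hypoxia. All groups overlapped, and relative to its level Aco1 had the narrowest range over the 9 libraries of the tested genes. Its log2 differences from standard oxygen were 0.02 in acute (95% interval -0.26 to 0.31) and 0.08 in chronic hypoxia (95% interval -0.17 to 0.32). Ireb2 (chr9:54863789-54912530, plus strand), whose protein is degraded when iron is plentiful, measured 14.4, 14.5 and 18.7 TPM in standard oxygen, 18.4, 18.1 and 20.8 in acute hypoxia, and 18.5, 18.9 and 21.7 in chronic hypoxia. Within each code Ireb2 was higher in both hypoxia groups than in standard oxygen, while the code Z standard library lay inside the hypoxic ranges. The difference was 0.26 in acute (limma adjusted p = 0.83, and 0.292 with the code block) and 0.30 in chronic hypoxia (limma adjusted p = 0.258, and 0.0633 with the block). At 14.4 to 27.4 TPM, the messages of Aco1 and Ireb2 had lower TPM than those of Fth1, Ftl1 and Tfrc in every library.

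**Figure D3:**
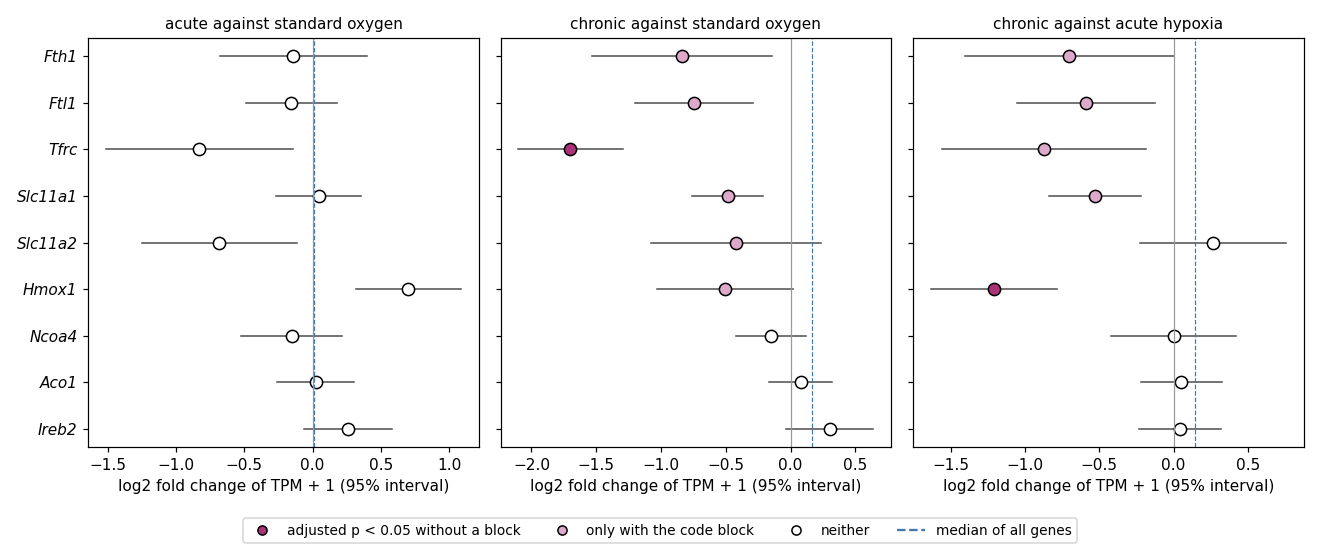
Log2 fold change of TPM + 1 with its 95% interval (horizontal axis) for the 9 tested iron handling genes in the 3 comparisons, without a block, with fill for an adjusted p under 0.05 and a dashed line at the median of all genes. Tfrc at -1.70 in chronic against standard and Hmox1 at -1.21 in chronic against acute pass without a block, and the genes that pass only with the code block are all below 0.

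Beyond these 10, 93 further genes of iron and haem metabolism in 8 lists were read, of which 74 reached the minimum mean of 1 TPM. Their counts of calls are read against those of all genes. Without a block 2 of the 74 passed in chronic hypoxia against standard oxygen, both higher, a share close to the 2.69% of all genes, and 14 had an unadjusted p under 0.05 (22.9% of all genes). With the code block 6 were higher and 6 lower, where 15.1% of all genes passed as higher and 3.3% as lower. After rescaling with the block the counts were 4 higher and 13 lower, against 5.61% and 5.91% of all genes. Their median log2 fold change was 0.04, against 0.16 for all genes. In chronic against acute hypoxia none passed limma without a block (14 had an unadjusted p under 0.05, as did 20.8% of all genes). With the code block 8 were higher and 5 lower, where 12.1% of all genes passed as higher and 3.42% as lower, and after rescaling 4 and 13, against 4.58% and 5.03%. In acute hypoxia against standard oxygen none passed without a block (6 had an unadjusted p under 0.05, as did 7.14% of all genes). With the block 1 passed, as did 0.71% of all genes.

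Among iron uptake genes, 6 of 13 were tested, and with the code block Lcn2 was lower and Trf higher in chronic hypoxia against standard oxygen. Lcn2, which binds the iron carriers of bacteria, was the most abundant of the list, and its range of 55.6 to 685 TPM in chronic hypoxia overlapped that of 220 to 1495 TPM in standard oxygen (log2 -1.61, limma adjusted p = 0.44, and 0.0122 with the block). Trf, transferrin itself, ranged from 9.18 to 48.7 TPM in standard oxygen and 24.2 to 271 TPM in chronic hypoxia (log2 2.14, limma adjusted p = 0.278, and 0.0168 with the block).

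Of the haem uptake and breakdown genes, 9 of 12 were tested. Lrp1, the receptor for haem bound to hemopexin among many other ligands, averaged 262 ± 40.2 TPM in the standard and 350 ± 18.7 TPM in the acute group and rose to 455 ± 41.7 TPM in the chronic one (SD, n = 3, log2 0.80 against standard, limma adjusted p = 0.0444). The call ended with rescaling (limma adjusted p = 0.0947, and 0.0566 with the code block) and without standard replicate 1 or 3 or chronic replicate 1 or 2 (adjusted p from 0.147 to 0.187). Hp, the haemoglobin carrier haptoglobin, passed with the code block as higher (log2 1.54, limma adjusted p = 0.00689). The haem and folate transporter Slc46a1 (log2 -0.71, limma adjusted p = 0.0132), the haem transporter Slc48a1 (-0.47, adjusted p = 0.0161) and the biliverdin reductase Blvrb (-0.47, adjusted p = 0.0248) passed with it as lower. Slc46a1 averaged 15.9 ± 2.92 TPM in standard oxygen and 9.32 ± 1.77 TPM in chronic hypoxia (SD, n = 3) with no overlap, whereas the ranges of the other 3 overlapped. Trf, Hp, Slc48a1 and Blvrb, and below Fech, Abcb6, Tax1bp1 and Glrx3, are named after their values were seen.

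In haem synthesis 1 of 12 tested genes passed with the code block in chronic hypoxia against standard oxygen, as lower. Among all genes 3.3% passed as lower. After rescaling with the block 3 passed, all lower, against 5.91% of all genes. They were Alas1, Fech (-0.39, limma adjusted p = 0.0471) and Abcb6 (-0.61, adjusted p = 0.0428). Alas1, the rate-limiting enzyme of the pathway outside red cells, averaged 934 ± 497 TPM in the standard, 986 ± 565 in the acute and 418 ± 215 in the chronic libraries (SD, n = 3). Its code Z libraries were the highest of each group, and the chronic difference was -1.15 (limma adjusted p = 0.197, and 0.00567 with the code block).

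In the mitochondrial iron-sulfur cluster list, 3 of 22 were higher in chronic hypoxia with the code block and none lower. Among all genes 15.1% passed as higher. After rescaling with the block 2 were higher and 1 lower, against 5.61% and 5.91% of all genes. Isca1, a late-acting assembly factor, was the only gene of the 8 lists to pass in acute hypoxia with the code block (limma adjusted p = 0.0299). Standard libraries held it at 24.4 ± 0.852 TPM, acute ones at 42.1 ± 0.439 and chronic ones at 36.1 ± 2.34 (SD, n = 3). Its acute difference was 0.76 (limma adjusted p = 0.0568 without a block), and in chronic hypoxia it rose by 0.54 (limma adjusted p = 0.046). That call ended with rescaling (limma adjusted p = 0.12) and in 5 of 6 fits that left out 1 library, the exception being standard replicate 2 (adjusted p from 0.0485 to 0.196 over the 6). The cluster carrier gene Nfu1 (log2 0.49, limma adjusted p = 0.0206) and the mitochondrial iron importer Slc25a28 (log2 0.61, limma adjusted p = 0.0185) passed in chronic hypoxia with the block. Iscu, the most abundant of the list, differed by -0.24 (limma adjusted p = 0.356).

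Of the 10 regulators of iron regulatory proteins and iron genes, 1 passed as lower with the code block in chronic hypoxia against standard oxygen. Among all genes 3.3% did. The gene was Zfp36 (log2 -0.66, limma adjusted p = 0.0165), an RNA-binding protein that promotes decay of Tfrc mRNA among others. Against acute hypoxia 3 passed as higher and 1 as lower, where 12.1% and 3.42% of all genes did. The group ranges of the lower one overlapped. Zc3h12a of this list, named after its values were seen, had 103, 104 and 158 TPM in acute and 69.9, 65.2 and 111 TPM in chronic hypoxia. The higher ones were Nfe2l2 (0.67, limma adjusted p = 0.0178), Bach1 (0.48, adjusted p = 0.0415) and Rbck1 (0.46, adjusted p = 0.0369). Nfe2l2 and Bach1 encode an activator and a haem-sensing repressor of Hmox1. In the standard, acute and chronic groups Nfe2l2 averaged 112 ± 5.55, 76.6 ± 9.12 and 124 ± 26.3 TPM, and Bach1 21.6 ± 1.96, 20.6 ± 0.846 and 29.3 ± 3.69 TPM (SD, n = 3). After rescaling with the block Nfe2l2 passed (limma adjusted p = 0.0389), while Bach1 and Rbck1 did not (limma adjusted p of 0.109 and 0.102). None of the 6 iron chaperone and ferritin delivery genes tested passed with the code block alone, where 0.71%, 18.4% and 15.5% of all genes did. These shares are for acute against standard, chronic against standard and chronic against acute. Without a block 0, 1 and 1 of the 6 had an unadjusted limma p under 0.05 in that order. Among all genes 7.14%, 22.9% and 20.8% did. One of the 6 was Pcbp2, which loads iron into ferritin (chronic against standard 0.03, limma adjusted p = 0.915). After rescaling with the block 2 of the 6 passed as lower in chronic hypoxia against standard oxygen, where 5.91% of all genes did. They were Tax1bp1 (-0.48, limma adjusted p = 0.0239) and Glrx3 (-0.33, adjusted p = 0.0446). Glrx3 also passed as lower against acute hypoxia (-0.31, adjusted p = 0.0496), where 5.03% of all genes did. The single export gene tested, Cp, did not pass (chronic against standard -0.09, limma adjusted p = 0.775). Of 8 cytosolic iron-sulfur genes, Ciao2b passed with the block as higher in chronic against acute hypoxia (0.44, limma adjusted p = 0.0389) but not after rescaling (0.112), and the most abundant, Ciao2a, did not (-0.02, limma adjusted p = 0.952).

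**Figure D4:**
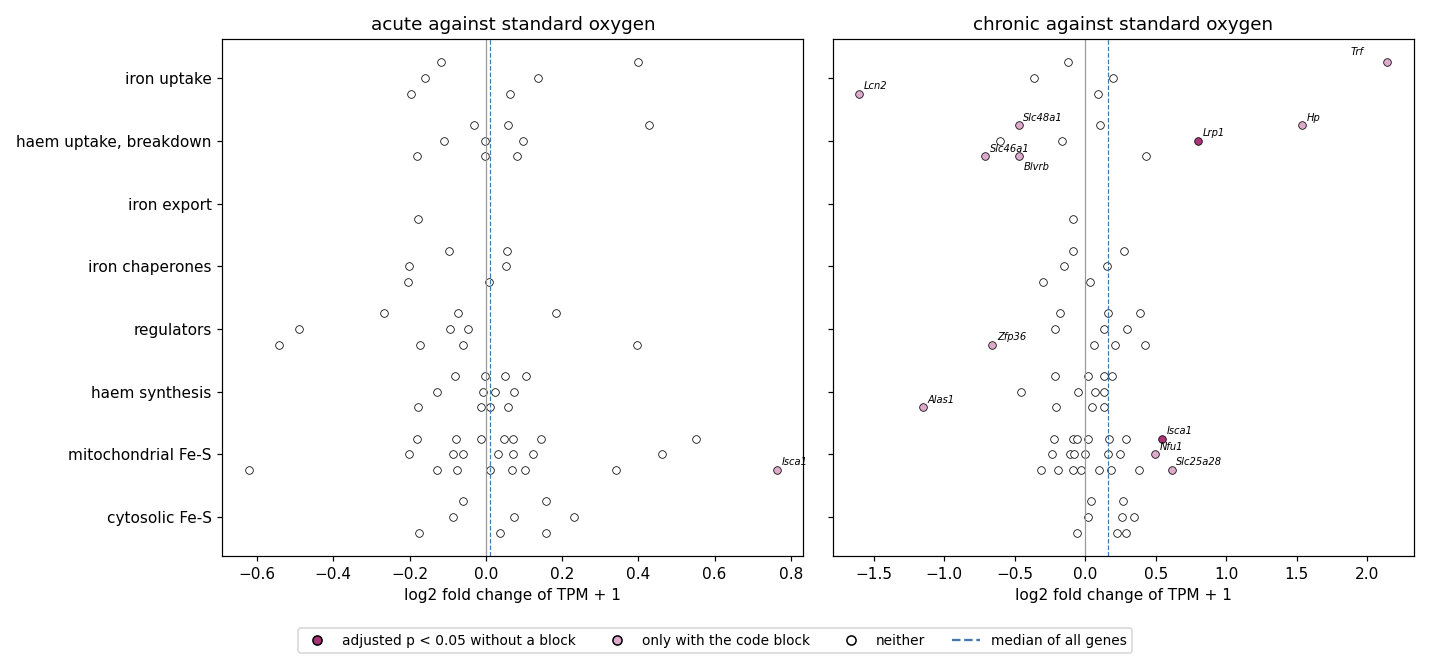
Log2 fold change of TPM + 1 for the 74 tested genes of 8 iron and haem lists, acute and chronic hypoxia each against the same 3 standard libraries, with fill for an adjusted p under 0.05 and a dashed line at the median of all genes. Isca1 (0.76) alone passes with the code block in the acute panel, and Lrp1 (0.80) and Isca1 (0.54) pass without a block in the chronic panel.

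Over the 9 libraries the 2 ferritin chains varied together (Pearson r = 0.949 of log2(TPM + 1)), and Tfrc followed both (0.878 with Fth1 and 0.924 with Ftl1). Ireb2 ran opposite to Fth1 (-0.801) and Tfrc (-0.832), and Aco1 had almost no relation to Fth1 (0.02) or Tfrc (0.01). These values are descriptions, since libraries share groups, codes and the TPM total. Among 7107 genes with a mean of at least 10 TPM, those most like Fth1 were the channel gene Panx1 (r = 0.99), catalase Cat (0.986) and the scavenger receptor Marco (0.978). Marco was between 2177 and 4374 TPM in standard oxygen and between 786 and 1881 TPM in chronic hypoxia. Those most like Tfrc were Plk3 (0.962), Arfgef2 (0.951) and Zfp36 (0.948), and those most like Hmox1 were Tbc1d20 (0.94), Slc35f6 (0.937) and Map2k4 (0.936).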

How the data were processed

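The authors deposited 3 tables of TPM, 1 for each pair of groups, and the 2 tables with a given sample gave it the same values. Per the submitters' processing notes, FastQC, STAR, featureCounts and build GRCm38 were used. Versions, settings, strand and annotation are not given in the sources used here. TPM holds no counts, so the replicate spread was the measure of error, and no count test was made.

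Symbols matched 34582 of 34866 identifiers. Each comparison used limma 3.58.1 (R 4.3.3; lmFit, eBayes with trend, two-sided) on log2(TPM + 1) of its 6 samples, for genes with a mean of at least 1 TPM (10987 to 11087 genes), with Benjamini-Hochberg adjustment over all of them. A fold change on this scale understates that of low genes. The script was tested on simulated data. Single values had exact two-sided permutation tests over samples (Python 3.11.15).

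The code block takes samples with the same code as pairs. Their deviations from the group means correlated at 0.375 to 0.631 over genes in every pair and comparison. Code Z stood apart, and code X was not matched with code Y across groups. The correlations therefore show that code Z differs, and cannot show that codes X and Y are pairs. Title numbers gave 0.395, -0.465 and -0.282 for acute and standard samples, with the negative values where they matched code Y with code Z. The title numbers match the codes for acute and chronic samples. Code X is replicate 1 of each group. Code Y is replicate 3 of standard oxygen and replicate 2 of both hypoxia groups, and code Z is replicate 2 of standard oxygen and replicate 3 of both.

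The members and lists were chosen with earlier results of these data known. Named list genes were those past the threshold without a block, up to 8 each way with the block and without overlap (mean of at least 5 TPM), and the most abundant of each list. 1 listed gene had 2 identifiers and was not used. Promoters and proteins were not used. Alternatives were 2 pseudocounts (0.1 and 5), filters (none and 5 TPM), no trend, rescaling, all 9 samples in 1 fit, blocks, pseudogenes added, and libraries left out.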

Additional observations from a re-analysis of the deposited data

Results flagged for a closer look

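Hmox1 is listed here because its response differed between the exposure times, by the direct test of chronic against acute hypoxia (log2 fold change -1.21, limma adjusted p = 0.0493). The call is near the threshold. It ended with rescaling (limma adjusted p = 0.0521) and in most fits that left out 1 library (limma adjusted p up to 0.238). All 3 acute libraries were above the standard library of the same code (0.55, 0.51 and 1.05 on the log2 scale). All 3 chronic libraries were below it (-0.50, -0.49 and -0.53). That codes X and Y form pairs is assumed. Both exposures were compared with the same 3 standard libraries. Groups of 3 are too small to test for single outlying samples.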

How the results depend on the processing

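In the values that follow, each trio gives acute against standard, chronic against standard and chronic against acute. Genes called numbered 3, 298 and 77 in all; among the 9 tested iron handling genes 0, 1 and 1; and among the other iron genes 0, 2 and 0. With the replicate block by sample code they became 78, 2039 and 1724; 0, 6 and 5; and 1, 12 and 13. The block with rescaling gave 54, 1271 and 1061; 0, 6 and 5; and 1, 17 and 17. The block with all 9 samples in 1 fit gave 205, 2916 and 2464; 2, 6 and 5; and 3, 17 and 18. The replicate block by title number gave 0, 1 and 1724; 0, 0 and 5; and 0, 0 and 13, and ended the chronic Tfrc call (-1.70, adjusted p = 0.121). Without the 3 code Z libraries the counts were 319, 2300 and 1788; 3, 6 and 6; and 2, 18 and 18. All 9 samples in 1 fit without a block called 25, 770 and 417 genes, 2 iron handling genes in chronic against standard, and 1, 5 and 1 other iron genes. Rescaling called 21 genes in acute against standard, 2 iron handling genes in chronic against standard, and 1 other iron gene in each comparison (Isca1, higher, in acute against standard, and Slc46a1, lower, in the others, so that Lrp1 and Isca1 were no longer called in chronic against standard). Omitting the trend gave 5, 166 and 25 genes, no iron handling gene in chronic against acute and 0 other iron genes in chronic against standard. No filter gave 120 and 7 genes in the comparisons with chronic hypoxia, 0 iron handling genes in chronic against acute and 0 other iron genes in chronic against standard. A pseudocount of 5 left 0 iron handling genes in chronic against acute. Leaving out 1 library at a time gave 0 to 33, 1 to 522 and 1 to 308 genes, 0 to 1 iron handling genes in both comparisons with chronic hypoxia, and 0 to 1, 0 to 2 and 0 to 3 other iron genes; such fits have fewer samples. For the other shifts the cause was not tested.

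Directions turned only for small differences. Leaving out 1 library moved the log2 Fth1 to Ftl1 ratio over -0.0818 to 0.124, -0.201 to 0.0375 and -0.219 to 0.0218. It moved acute against standard Fth1 over -0.311 to 0.0261, Slc11a1 over -0.0632 to 0.118 and Aco1 over -0.0326 to 0.116, and chronic against acute Ncoa4 over -0.101 to 0.173, Aco1 over -0.0398 to 0.104 and Ireb2 over -0.0251 to 0.105. Rescaling, with or without the code block, gave -0.0979 for Aco1 in chronic against standard, and -0.156, -0.1 and -0.106 for Ncoa4, Aco1 and Ireb2 in chronic against acute. Without code Z, Slc11a1 in acute against standard was -0.0106, and Aco1 was -0.00825 in chronic against standard and -0.0674 in chronic against acute. TPM gives no depth, so counting error is unknown for Slc40a1 and other low genes.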

Other observations

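Genes whose levels ran most like the remaining iron handling genes over the 9 libraries, by Pearson r of log2(TPM + 1), were as follows. For Ftl1 they were Pld3 (0.99), Chchd10 (0.982) and Mapre3 (0.979). Chchd10, a mitochondrial protein, was listed at 39.0 to 67.2 TPM in standard oxygen and 11.8 to 20.6 TPM in chronic hypoxia. For Slc11a1 they were Il1f9 (0.972), Capn1 (0.97) and Slc7a11 (0.966). Slc7a11, the cystine importer that feeds glutathione synthesis, was listed at 10.5 to 29.6 TPM in the standard libraries, 11.4 to 54.6 in the acute and 0.986 to 4.15 in the chronic ones, with code Z highest in every group. For Slc11a2 they were Nup62 (0.97), Tbc1d2 (0.948) and Fnip2 (0.936), and for Slc40a1 Igf1 (0.957), Cd36 (0.95) and Akirin1 (0.945). For Ireb2 they were the proteasome subunit Psma1 (0.982), Eef1akmt1 (0.979) and Kdm2a (0.979). The genes most like Ncoa4 were Sat1 (0.963), Aar2 (0.915) and Clcn7 (0.906), and those most like Aco1 were Smim4 (0.894), Ifnar1 (0.869) and Tgfbr1 (0.864). Each was picked as the highest of 7107 genes, so the values describe these libraries and carry no test.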
